A study of Mus musculus with 4 samples.

Results

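The *Zscan4* paralogs are a cluster of near-identical genes on mouse chromosome 7, and their RNA was compared between G3 *Terc*-/- ESCs and WT ESCs. Members were chosen by name from *Zscan4a* to *Zscan4f*. Of these 6 names, 5 have a row among the 24116 genes of the count table, and *Zscan4e* was not analysed here. The study compared ESCs of the C57BL/6 strain with and without *Terc*, the RNA template of telomerase, using 2 libraries of the WT line N12 and 2 of the G3 *Terc*-/- line F35. G3 marks the third generation of *Terc* loss, with ESCs taken from blastocysts of second-generation mice, and all libraries were made from poly(A) RNA of cells kept on feeder cells in serum and LIF medium. With 1 line per genotype, genotype and line cannot be told apart, and the p-values measure the spread between libraries of 1 line.

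*Zscan4* genes encode proteins with a SCAN domain, used for protein pairing, and C2H2 zinc fingers, used for DNA binding. In the mouse embryo they are switched on at the 2-cell stage, when the embryonic genome is first transcribed. In ESC cultures they are on at any moment only in a small and changing part of the cells, together with other 2-cell genes and MERVL retrotransposons, and they have been linked to telomere lengthening by recombination. In bulk RNA, a larger part of cells in this state and more *Zscan4* RNA per such cell cannot be told apart.

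The summed *Zscan4* counts were 93 and 100 in WT and 974 and 791 in the G3 *Terc*-/- libraries. Scaled for library depth as CPM, with TMM library factors, the sum was 4.38 ± 0.178 in WT and 43.6 ± 0.402 (both SD, n = 2) in G3 *Terc*-/- ESCs, which is 9.94-fold higher. All 5 paralogs rose, between 7.30-fold for *Zscan4f* and 13.0-fold for *Zscan4d*. Both G3 *Terc*-/- libraries lay close together, at 43.9 and 43.4 CPM, and so did the WT libraries, at 4.26 and 4.51 CPM.

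The paralogs lie in tandem over 608.1 kb (GRCm38 chr7:10794241-11402318), in the order *Zscan4a*, *Zscan4b*, *Zscan4c*, *Zscan4d* and *Zscan4f*. *Zscan4c* (gene identifier 245109, chr7:11005745-11010547) and *Zscan4f* (665902, chr7:11397915-11402318) are on the plus strand. *Zscan4a* (434555, chr7:10794241-10799065), *Zscan4b* (665780, chr7:10900740-10905050) and *Zscan4d* (545913, chr7:11161643-11166148) are on the minus strand. RefSeq lists *Zscan4b*, *Zscan4c*, *Zscan4d* and *Zscan4f* as protein coding and *Zscan4a* as a transcribed pseudogene. In GENCODE M21 each has 4 exons, and the coding length is 1518 bases in *Zscan4c*, *Zscan4d* and *Zscan4f* and 1515 bases in *Zscan4b*.

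Their sequences decide how far a read can be given to 1 paralog. The transcripts of *Zscan4c* and *Zscan4f* were identical at 99.6% of 1806 aligned bases, and those of *Zscan4c* and *Zscan4d* at 97.5% of 2270. Over the coding sequence of *Zscan4c*, 72 of 1518 positions differed among the 5 paralogs. The 90 bases below, positions 565 to 654 of that coding sequence within 1 exon of each gene, are the stretch with the most positions that differ, 11 in all, and capitals mark each base that differs from *Zscan4c*.

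*Zscan4a*, chr7:10795663-10795752, minus strand: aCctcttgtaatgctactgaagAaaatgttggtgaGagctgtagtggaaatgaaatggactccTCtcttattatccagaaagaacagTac
*Zscan4b*, chr7:10901661-10901750, minus strand: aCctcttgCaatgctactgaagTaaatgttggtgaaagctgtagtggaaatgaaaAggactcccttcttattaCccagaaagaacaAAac
*Zscan4c*, chr7:11009040-11009129, plus strand: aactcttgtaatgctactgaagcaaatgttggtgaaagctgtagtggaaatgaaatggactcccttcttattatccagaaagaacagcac
*Zscan4d*, chr7:11162788-11162877, minus strand: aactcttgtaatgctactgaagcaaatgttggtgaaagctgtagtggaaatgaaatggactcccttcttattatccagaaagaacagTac
*Zscan4f*, chr7:11401233-11401322, plus strand: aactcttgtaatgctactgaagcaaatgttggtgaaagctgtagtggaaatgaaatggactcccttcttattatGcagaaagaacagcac

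Even in this stretch *Zscan4d* and *Zscan4f* each differ from *Zscan4c* at 1 base. Reads of the study were 150 bases long, so each transcript was cut into all its windows of 150 bases and these were looked up in all GENCODE transcripts. Windows found in no other gene made up 87.0% of *Zscan4d*, 74.9% of *Zscan4a*, 39.0% of *Zscan4c*, 31.6% of *Zscan4b* and 13.8% of *Zscan4f*. A read pair can be placed by either mate, so these shares are of single reads. Whether reads that match several places were dropped or counted is not given in the sources used here, and the split between paralogs, above all for *Zscan4f*, is therefore uncertain. The sum is also limited, because *Zscan4e* and the annotated pseudogenes *Zscan4-ps1*, *Zscan4-ps2* and *Zscan4-ps3* were not analysed here.

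The promoters of the members are shown because the genes moved together. Of the 5 members, 4 have an entry among the RefSeq promoters of GRCm38. Printed are the 250 bases before the annotated start, 5′ to 3′ on the strand of the gene, with 3 matches in capitals in their order along the strand. The first is a match to the motif of Dux, a homeobox factor that binds and activates 2-cell genes, then follow a TATA box and a CCAAT box.

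*Zscan4b*, chr7:10905051-10905300, minus strand: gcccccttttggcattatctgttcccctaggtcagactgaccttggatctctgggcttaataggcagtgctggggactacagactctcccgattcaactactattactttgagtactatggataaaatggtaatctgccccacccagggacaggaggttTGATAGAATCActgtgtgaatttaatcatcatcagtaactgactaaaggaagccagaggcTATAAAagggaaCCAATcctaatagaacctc
*Zscan4c*, chr7:11005495-11005744, plus strand: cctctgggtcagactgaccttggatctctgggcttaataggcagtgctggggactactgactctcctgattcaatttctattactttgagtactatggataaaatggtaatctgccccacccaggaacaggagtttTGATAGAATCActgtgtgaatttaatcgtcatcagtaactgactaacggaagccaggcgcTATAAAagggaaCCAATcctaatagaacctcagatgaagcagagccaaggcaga
*Zscan4d*, chr7:11166149-11166398, minus strand: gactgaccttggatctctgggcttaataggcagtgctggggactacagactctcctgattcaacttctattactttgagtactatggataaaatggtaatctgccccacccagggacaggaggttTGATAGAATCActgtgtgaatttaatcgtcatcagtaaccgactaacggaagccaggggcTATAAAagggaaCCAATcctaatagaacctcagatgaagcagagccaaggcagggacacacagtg
*Zscan4f*, chr7:11397665-11397914, plus strand: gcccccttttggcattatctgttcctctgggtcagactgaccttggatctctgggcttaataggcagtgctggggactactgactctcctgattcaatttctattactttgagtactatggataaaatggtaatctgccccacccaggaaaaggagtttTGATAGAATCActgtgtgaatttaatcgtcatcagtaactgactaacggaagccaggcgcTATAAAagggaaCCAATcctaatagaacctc

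Against *Zscan4c*, the aligned bases were identical at 99.6% in *Zscan4f*, 97.1% in *Zscan4d* and 94.7% in *Zscan4b*. The Dux motif was searched as TGATT, 2 bases of any kind and ATCA, on both strands, and all 4 promoters hold the match TGATAGAATCA on the reverse strand, 60 bases before the first base of the TATA box. Of all 32851 promoter entries of the same length, 0.177% hold a match to it. TATAAA was found in all 4, and in 12.4% of all promoters. CCAAT was found 12 bases further on in all 4, and in 33.8% of all. None of the 4 holds TAATCC (Obox and Otx factors), TGCACAC (Zscan4), CACGTG (E-box) or GGGCGG (GC box), letters that 6.25%, 3.67%, 6.02% and 32.7% of all promoters hold. The 4 promoters are near-identical, so the matches, spacings and absences that they share are not separate observations. The matches do not overlap, and they describe letters, not binding.

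Library depth lay between 18047995 and 22520017 gene counts, and *Terc* was counted 7 and 2 times in WT and not at all (0 counts) in either G3 *Terc*-/- library, which allows up to 3 counts each. The ESC label was checked against 16 pluripotency genes, whose summed level was 7466 to 7599 CPM in WT and 9301 to 9740 CPM in G3 *Terc*-/- libraries. The sum hides a mixed pattern. At an edgeR adjusted p under 0.05, 12 of the 16 were higher and 4 lower, beside 21.7% and 21.8% of all genes. The 4 lower were *Dppa3*, *Dppa5a*, *Utf1* and *Lin28a*. The 25 fibroblast markers chosen for feeder cells summed to 1717 to 2073 CPM in WT and 2270 to 2698 CPM in G3 *Terc*-/- libraries, and none of them was at 0. Of the 24 tested, 8 were higher and 0 lower at an edgeR adjusted p under 0.05, beside 21.7% and 21.8% of all genes. Their median log2 fold change was 0.24. *Fn1*, the fibronectin gene, made up most of the marker sum. Without it, a split chosen after seeing the values, the other 24 markers summed to 936 and 709 CPM in WT replicates 1 and 2. In G3 *Terc*-/- replicates 1 and 2 they summed to 1002 and 764 CPM. The ranges overlap, but replicate 1 was the higher in both genotypes, and G3 *Terc*-/- was the higher within each number. The part of these markers in the *Zscan4* difference was not tested.

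*Zscan4c*, one of the 3 paralogs with the longest reading frame and a form known from ESCs, had 25 and 26 counts in WT and 221 and 165 counts in G3 *Terc*-/- libraries. This was 1.16 ± 0.0197 CPM in WT and 9.50 ± 0.652 CPM (both SD, n = 2) in G3 *Terc*-/- ESCs. Both G3 *Terc*-/- libraries were high, and the WT libraries were almost equal to each other. The log2 fold change was 3.03 ± 0.21 (SE), and the p-value adjusted by Benjamini-Hochberg over all genes was 5.00e-16 in the quasi-likelihood test of edgeR.

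*Zscan4d*, the form known as the main one of the 2-cell embryo, had 18 and 22 counts in WT and 243 and 234 counts in G3 *Terc*-/- libraries. Its level was 0.908 ± 0.119 CPM in WT and 11.9 ± 1.32 CPM (both SD, n = 2) in G3 *Terc*-/- ESCs. G3 replicate 2 was the higher of the G3 *Terc*-/- libraries once scaled for depth. The log2 fold change of *Zscan4d* was 3.70 ± 0.21 (SE, edgeR adjusted p = 1.05e-18), the largest among the members with all libraries in the fit.

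*Zscan4f*, the third paralog with this coding length, had 19 and 27 counts in WT and 180 and 131 counts in G3 *Terc*-/- libraries. These were 1.04 ± 0.246 (SD, n = 2) and 7.65 ± 0.663 (SD, n = 2) CPM. Its log2 fold change was 2.87 ± 0.23 (SE, edgeR adjusted p = 5.21e-14), the smallest among the members. *Zscan4f* also has the fewest windows of its own, and *Zscan4d* and *Zscan4a*, which have the most, had the largest log2 fold changes. *Zscan4b*, with 31.6% of such windows, was at 3.29 ± 0.33 (SE). *Zscan4c*, with 39.0%, was at 3.03 ± 0.21 (SE), and their error ranges overlap. A link between windows and rise was not tested.

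*Zscan4b*, which is coding but 3 bases shorter, had the fewest counts. It had 15 and 5 counts in WT and 101 and 81 counts in G3 *Terc*-/- libraries, or 0.456 ± 0.326 (SD, n = 2) and 4.50 ± 0.0813 (SD, n = 2) CPM. The WT libraries differed from each other, and the log2 fold change of 3.29 ± 0.33 (SE, edgeR adjusted p = 2.69e-11) depended on them. It was 4.28 without WT replicate 1 and 2.70 without WT replicate 2.

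*Zscan4a*, the transcribed pseudogene, had 16 and 20 counts in WT and 229 and 180 counts in G3 *Terc*-/- libraries, so the difference was not limited to coding members. The levels were 0.817 ± 0.120 (SD, n = 2) and 10.1 ± 0.326 (SD, n = 2) CPM, and the log2 fold change was 3.62 ± 0.22 (SE, edgeR adjusted p = 1.10e-17).

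**Figure D1:**
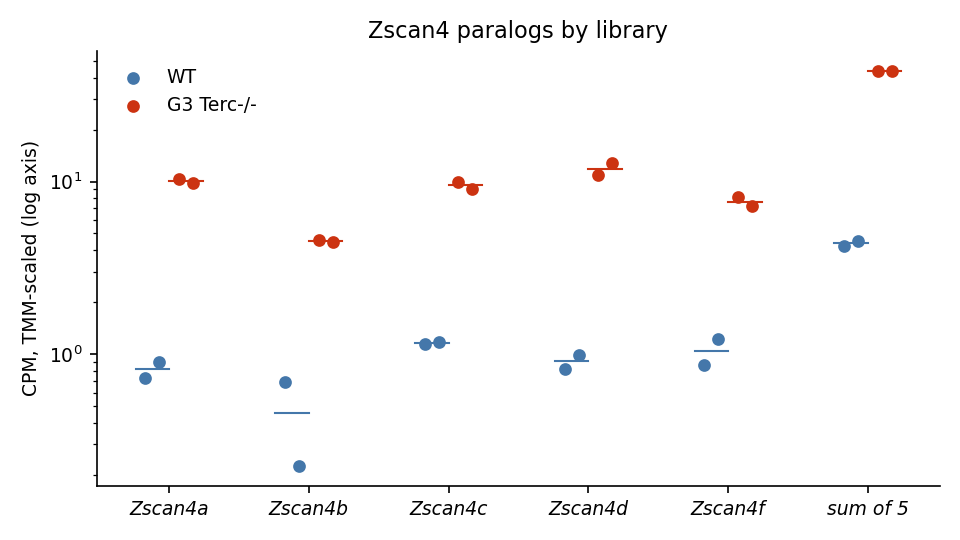
CPM of each *Zscan4* paralog and of their sum (log axis, TMM-scaled) in the 2 WT and the 2 G3 *Terc*-/- libraries, with points for libraries and lines for group means. The G3 *Terc*-/- points lie above the WT points for every paralog, and the sum goes from 4.26 and 4.51 CPM to 43.9 and 43.4 CPM.

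At the study's cutoffs for genes, a 2-fold change with *P* below 0.05, all 5 paralogs were called higher, where 4.73% of the 14896 genes tested were called higher and 3.13% lower. An adjusted p under 0.05 at any size was reached by all 5 as higher, against 21.7% of all genes higher and 21.8% lower. *Zscan4a*, *Zscan4c*, *Zscan4d* and *Zscan4f* had at least 10 counts in both WT libraries. *Zscan4b* did not, and entered the test through its level in G3 *Terc*-/- ESCs. Of the 14310 genes with at least 10 counts in both WT libraries, 2.98% were called higher. Ordered by log2 fold change, *Zscan4d* stood at place 25, *Zscan4a* at 29, *Zscan4b* at 44, *Zscan4c* at 60 and *Zscan4f* at 66 of the genes tested. Among the 12177 genes averaging 50 counts or more they stood at places 6, 8, 10, 15 and 16 in the same order. This mean is taken over both genotypes, and no paralog reached 50 counts in a WT library. All of them passed this filter through G3 *Terc*-/- libraries, so these places give no support of their own.

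The call of each paralog was the same under every alternative run, which were other scalings, other filters, DESeq2, the replicate block and each library left out in turn. The log2 fold change of *Zscan4a* stayed between 3.48 and 3.77, that of *Zscan4c* between 2.96 and 3.10, that of *Zscan4d* between 3.57 and 3.84 and that of *Zscan4f* between 2.65 and 3.13. The log2 fold change of the sum was 3.31 ± 0.11 (SE) and lay between 3.19 and 3.36.

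**Figure D2:**
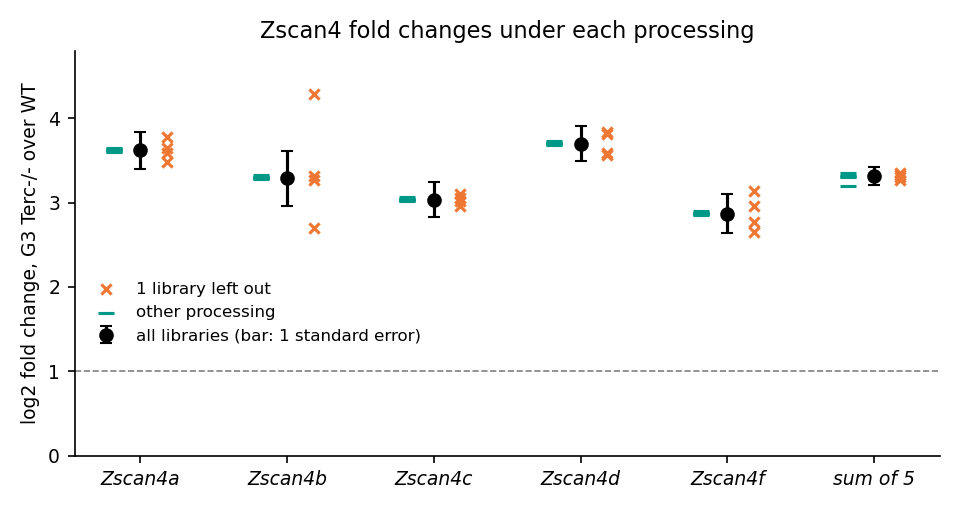
Log2 fold change (G3 *Terc*-/- over WT) of each paralog and of the sum with all libraries (circle, bar of 1 standard error), with 1 library left out (crosses) and under other processing (dashes), with the fold change of 2 as a dashed line. Every value lies above that line, and *Zscan4b* spreads most, from 2.70 to 4.28.

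The paralogs can be compared with each other only per length. Divided by the length of the longest GENCODE transcript, WT levels per kilobase at the same depth scaling (RPKM) were 0.571 ± 0.134 (SD, n = 2) for *Zscan4f*, 0.509 ± 0.00864 for *Zscan4c*, 0.400 ± 0.0522 for *Zscan4d*, 0.359 ± 0.0525 for *Zscan4a* and 0.256 ± 0.183 for *Zscan4b*. At these lengths only *Zscan4c* and *Zscan4d*, of the neighbours in this order, did not overlap between their libraries. In G3 *Terc*-/- ESCs the RPKM levels were 5.23 ± 0.581 (SD, n = 2) for *Zscan4d*, 4.43 ± 0.143 for *Zscan4a*, 4.18 ± 0.362 for *Zscan4f*, 4.18 ± 0.287 for *Zscan4c* and 2.53 ± 0.0457 for *Zscan4b*. Here *Zscan4d* lay above *Zscan4a* and *Zscan4c* above *Zscan4b* in both libraries, and the other neighbours in the order overlapped. These levels carry the uneven share of windows that each paralog has to itself. *Zscan4d* spans chr7:11161374-11166159 in GENCODE, wider than its RefSeq bounds given above, while counts are per RefSeq gene identifier. Its levels per kilobase, its place in both orders and its overlaps therefore depend on the length used.

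The mix of paralogs within each library is given as shares of the summed counts, without a test. *Zscan4d* held 19.4% and 22% of the summed counts in WT against 24.9% and 29.6% in G3 *Terc*-/- libraries. The exact (Clopper-Pearson) 95% intervals, which cover counting error only, were 11.9% to 28.8% and 14.3% to 31.4% in WT and 22.3% to 27.8% and 26.4% to 32.9% in G3 *Terc*-/- libraries, and they overlap. *Zscan4f* held 20.4% and 27.0% in WT against 18.5% and 16.6% in G3 *Terc*-/- libraries, and its intervals overlap as well.

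There were 0.947 and 0.815 counts of *Zscan4d* per count of *Zscan4f* in WT against 1.35 and 1.79 in G3 *Terc*-/- libraries, without overlap. For *Zscan4a* per *Zscan4c* the values were 0.640 and 0.769 in WT against 1.04 and 1.09 in G3 *Terc*-/- libraries. An exact two-sided permutation test on 2 + 2 libraries cannot go below p = 0.333, so these ratios are given without a test. *Zscan4d* and *Zscan4a* are the members with the most windows of their own, and a link of this with the ratios was not tested.

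**Figure D3:**
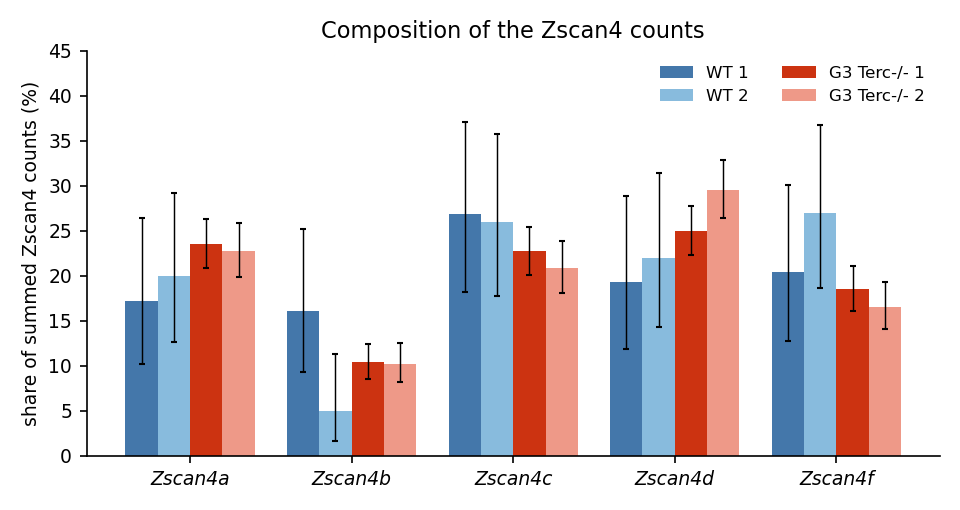
Share of the summed *Zscan4* counts held by each paralog (percent) in the 2 WT and the 2 G3 *Terc*-/- libraries, with exact 95% binomial intervals as bars. WT intervals are wide because they rest on 93 and 100 counts, and *Zscan4d* goes from 19.4% and 22% to 24.9% and 29.6%.

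The genes around the cluster were described with the same cutoffs as the paralogs. Of the 65 other genes within 2 Mb of the cluster, 21 were tested. At the study's cutoffs 0 of the 21 were called higher or lower with edgeR or DESeq2, beside 4.73% and 3.13% of all genes in edgeR. For a list of 21 genes, 0 called is close to these shares. At an unadjusted edgeR p under 0.05 and any size, 8 were higher and 1 lower, beside 25.0% of all genes tested higher and 24.8% lower. On the adjusted p alone, 7 were higher and 1 lower, beside 21.7% and 21.8% of all genes, with log2 fold changes of the 21 between -0.53 and 0.81 and a median of 0.18, beside 0.0062 over all genes tested. No other tested gene lies between the paralogs. On one side the nearest tested gene was *Zik1*, 298.9 kb away, at 0.38 (edgeR adjusted p = 0.00895). On the other side it was *Zfp551*, 1010 kb away, at -0.06 (edgeR adjusted p = 0.90), both zinc finger genes named for their position after their values were seen. All tested neighbours other than *Zik1* lie on the side of *Zfp551*.

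The 4 neighbours with the smallest p were *Trim28*, a corepressor of retrotransposons, at 0.41, the SCAN gene *Zscan18* at -0.53, and the zinc finger genes *Zfp324* at 0.81 and *Zbtb45* at 0.30. Of the 44 neighbours not tested, 39 were vomeronasal receptor genes, with at most 2 counts in any library.

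**Figure D4:**
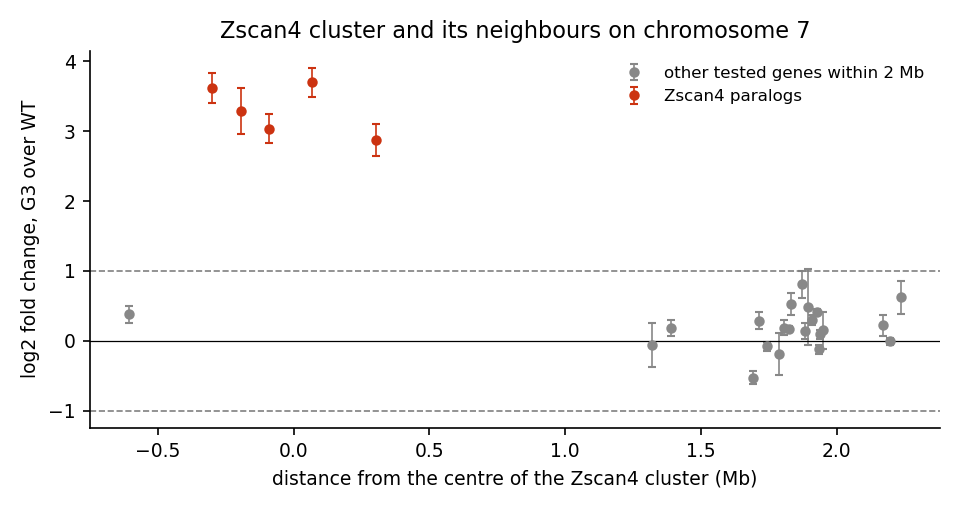
Log2 fold change (G3 *Terc*-/- over WT, bar of 1 standard error) of the tested genes within 2 Mb of the *Zscan4* cluster, against their distance from its centre in Mb, with a fold change of 2 either way as dashed lines. The 5 paralogs lie between 2.87 and 3.70, and the 21 other genes between -0.53 and 0.81.

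Relatives of the members were taken as all other genes whose symbol begins with Zscan or Zkscan, families of SCAN and zinc finger genes. All 22 were tested, with a median log2 fold change of 0.08. With edgeR and with DESeq2, 2 of the 22 were called higher and 0 lower, beside 4.73% and 3.13% of all genes in edgeR. At an unadjusted edgeR p under 0.05 and any size, 6 were higher and 2 lower, beside 25.0% and 24.8% of all genes. The pair called higher were *Zkscan2*, at 1.01, and *Zscan5b*, at 1.07, named after its values were seen, both just past the cutoff of 1, and without WT replicate 1 none of the 22 was called higher. *Zkscan17*, at -0.44, *Zscan18*, at -0.53, and *Zkscan1*, at 0.36, had adjusted p-values under 0.05 and did not pass the fold change cutoff.

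Genes that are on with *Zscan4* in the 2-cell state were described from a list of 50, of which 48 have a row in the table and *Duxf3* was not analysed here. Of the 48, 27 were tested and 26 of these were called higher and 0 lower, beside 4.73% and 3.13% of all genes in edgeR. DESeq2 called 24 higher and 0 lower. At an unadjusted edgeR p under 0.05 and any size, 26 were higher and 1 lower, beside 25.0% and 24.8% of all genes. The median log2 fold change of the 27 was 3.08. Most of the 27 passed the filter only through G3 *Terc*-/- libraries, so the count called higher was bound to be high and gives no support of its own. The 21 genes not tested had at most 27 counts over all libraries. Of the 5 list genes with at least 10 counts in both WT libraries, 4 were called higher, where 2.98% of all such genes were.

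*Calcoco2*, an autophagy receptor, had 765 and 915 counts in WT and 2331 and 2077 counts in G3 *Terc*-/- libraries, a log2 fold change of 1.52 ± 0.07 (SE, edgeR adjusted p = 1.60e-21). *Gm5662* went from 12 and 22 to 235 and 234 counts and *Usp17le*, of a family of deubiquitinases, from 20 and 20 to 118 and 114. *Gm20767* went from 18 and 6 counts in WT to 139 and 107 in G3 *Terc*-/- libraries. The rises of the multicopy genes among these are uncertain in the same way as those of *Zscan4*, since near-identical copies share reads.

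The *Tcstv* genes, named for their place in the 2-cell transcript set, were low in WT, with 4 and 5 counts of *Tcstv1* and 3 and 2 counts of *Tcstv3*, and had 60 and 43 and 41 and 35 counts in G3 *Terc*-/- libraries. *Tmem92*, coding for a membrane protein, went from 5 and 6 to 66 and 57 counts, and *Zfp352*, a retroposed zinc finger gene, from 0 and 2 to 32 and 25. *Pif1*, a helicase named after its values were seen, was the 1 tested gene of the list that was not called higher, at -0.19.

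MERVL-int, the internal part of the retrotransposon that is on in 2-cell-like cells, had 1374 and 1365 counts in WT and 7585 and 6257 counts in G3 *Terc*-/- libraries. Per summed *Zscan4* count there were 14.8 and 13.7 MERVL-int counts in WT libraries and 7.79 and 7.91 in G3 *Terc*-/- libraries. For MT2_Mm, the LTR of MERVL, the ratio went from 11.8 and 10.96 to 3.01 and 3.23, so that in these counts both repeats differed by less than *Zscan4* did between the genotypes. How reads that match several copies were counted is not given in the sources used here, so these ratios are uncertain as well.

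Of 7 genes known as activators of *Zscan4* or of the 2-cell state, 1 was called higher and 1 lower, beside 4.73% and 3.13% of all genes tested. On the edgeR adjusted p 2 were higher and 3 lower, beside 21.7% and 21.8% of all genes. The median log2 fold change of the 7 was -0.08. *Tbx3*, a T-box factor of naive ESCs, had 2536 and 2682 counts in WT and 8745 and 7958 counts in G3 *Terc*-/- libraries, a log2 fold change of 1.81 ± 0.05 (SE, edgeR adjusted p = 1.13e-27). *Dppa3*, also called Stella, fell by 1.22 on the log2 scale (edgeR adjusted p = 2.94e-17) and lies on chromosome 6, and without the genes of that chromosome 0 of the list were called lower. *Dppa2* was at 0.69 (edgeR adjusted p = 1.10e-13), and *Dppa4*, its binding partner, at -0.13. *Nelfa*, a subunit of the complex that pauses RNA polymerase, was at -0.26.

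None of the 28 genes listed as repressors passed the study's cutoffs in either direction with edgeR or DESeq2. In edgeR 4.73% of all genes passed as higher and 3.13% as lower. At an unadjusted edgeR p under 0.05 and any size, 6 of the 28 were higher and 10 lower, beside 25.0% and 24.8% of all genes. On the adjusted p 6 were higher and 9 lower, beside 21.7% and 21.8% of all genes, and the median was -0.06. *Smchd1*, a chromatin protein of the inactive X and of silenced gene clusters, had 3261 and 3331 counts in WT and 1984 and 1717 counts in G3 *Terc*-/- libraries, at -0.71 (edgeR adjusted p = 4.38e-14). *Trim28* went the other way, at 0.41, as did *Tet2*, a 5-methylcytosine oxidase, at 0.46 and *Rif1*, a telomere and replication timing factor, at 0.24. *Lin28a*, an RNA-binding protein, was at -0.42.

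Of 20 genes of telomere maintenance and recombination, 19 were tested, with a median of -0.08. With edgeR and with DESeq2, 0 of the 19 were called higher and 1 lower, beside 4.73% and 3.13% of all genes in edgeR. At an unadjusted edgeR p under 0.05 and any size, 4 were higher and 5 lower, shares near the 25.0% and 24.8% of all genes. *Pot1a*, a shelterin gene that binds single-stranded telomere DNA, fell by 1.18 on the log2 scale (edgeR adjusted p = 3.08e-16) and lies on chromosome 6, and without that chromosome 0 genes were called lower. *Atrx*, a chromatin remodeller of telomeres, was at -0.72, *Terf1*, a shelterin subunit, at 0.53, *Rtel1*, a helicase, at 0.38 and *Tert*, the protein subunit of telomerase, at 0.31, each with an adjusted p under 0.05 and below the fold change cutoff. For *Tert* the adjusted p was 0.0654 with DESeq2 and 0.0593 with edgeR without WT replicate 1.

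Meiotic recombination genes have been tied to *Zscan4* in ESCs. *Dmc1*, the meiotic recombinase, had 574 and 593 counts in WT and 569 and 429 counts in G3 *Terc*-/- libraries, at -0.11 ± 0.08 (SE, edgeR adjusted p = 0.326). *Smc1b*, a meiotic cohesin subunit, had 167 and 164 counts in WT and 178 and 141 counts in G3 *Terc*-/- libraries, at 0.07 ± 0.14 (SE, edgeR adjusted p = 0.733). *Spo11*, which makes the meiotic breaks, had 0 counts in 3 libraries and 2 in G3 replicate 2, and was not tested. *Terf2*, a shelterin subunit, was at 0.15 (edgeR adjusted p = 0.0958).

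**Figure D5:**
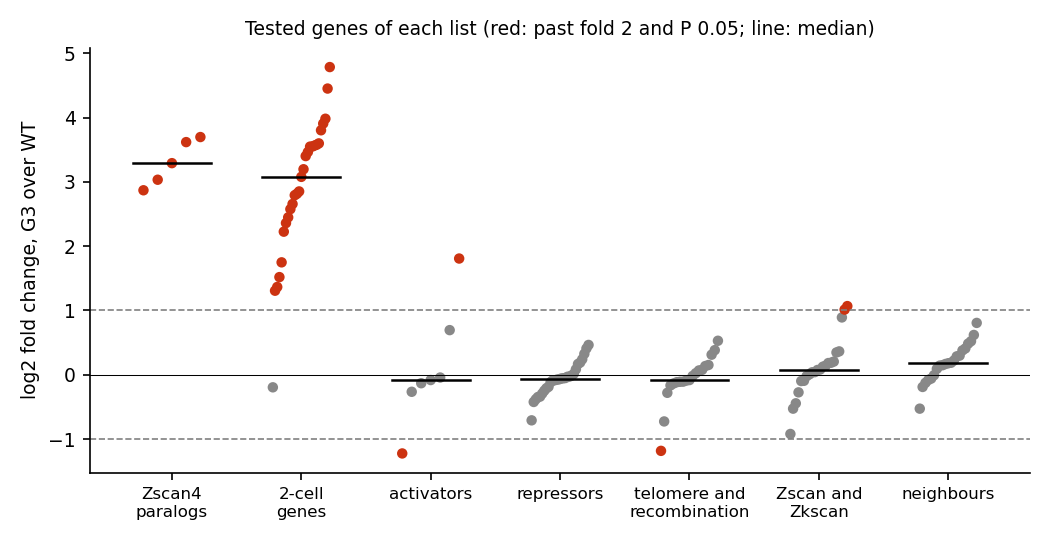
Log2 fold change (G3 *Terc*-/- over WT) of the tested genes of each list, 1 point a gene, with red for genes past a 2-fold change with *P* below 0.05, a line for the median of each list and dashed lines at a fold change of 2. The *Zscan4* paralogs have a median of 3.29. The 2-cell genes, most of which passed the filter only through G3 *Terc*-/- libraries, have a median of 3.08. The lists of activators, repressors, telomere genes, relatives and neighbours have medians between -0.08 and 0.18.

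The genes most like the summed *Zscan4* in their pattern over the 4 libraries were sought among 12172 other genes averaging 50 counts or more. Likeness was the root mean square difference of log2 CPM, centred on the mean of the libraries. The smallest differences were those of *A2m*, a secreted protease inhibitor (0.127), *Zfy1*, a zinc finger gene of the Y chromosome (0.153), *Vax2os*, a transcript opposite *Vax2* (0.171), *Gm5039* (0.179) and *Pramel16*, of the PRAME-like family (0.225). For the members themselves it lay between 0.121 for *Zscan4a* and 0.486 for *Zscan4b*.

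*A2m* had 93 and 79 counts in WT and 803 and 673 counts in G3 *Terc*-/- libraries. *Zfy1* went from 22 and 26 to 199 and 186 counts and *Pramel16* from 13 and 9 to 154 and 112. *A2m* and *Vax2os* lie on chromosome 6, and *Vax2os* could not be told apart from its partner without a known strand setting. With 2 genotypes of 2 libraries, likeness describes the size of the difference and the replicate spread, and many genes can share it.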

How the data were processed

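Poly(A) RNA-seq of 2 WT and 2 G3 *Terc*-/- libraries was used. Per the labels, the authors used Trim Galore, STAR, featureCounts and mm10, and deposited raw counts per gene and per repeat copy, not normalized. Versions, strand and multi-mapping settings are not given in the sources used here. Gene identifiers were matched to RefSeq of GRCm38.p6 (24061 of 24116), and 0 columns were left out. Repeat copies were summed by repeat name.

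Fold changes were fitted on the whole gene table with edgeR 4.0.16 in R 4.3.3 (TMM, filterByExpr, quasi-likelihood test, 1 term for genotype) with Benjamini-Hochberg adjustment. Standard errors were the log2 fold change divided by the root of its F statistic. The summed members entered a second fit as 1 feature, without a p-value. With 2 libraries a genotype, low WT counts limit precision. Replicates differed by more than sampling noise (chi-square per gene 2.46 in WT, 3.73 in G3). In simulated counts of 14896 genes, edgeR recovered 84% of genes raised 2-fold, 100% raised 8-fold and 92% of genes with a fold change of 0.25. These shares are not taken as rates for the calls at the study's cutoffs. Transcripts of GENCODE M21 were aligned with Biopython 1.88, and figures were drawn with matplotlib 3.10.9.

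Named are the members, *Terc*, in each list the 4 genes of smallest p, 14 genes fixed by name that are in the table, the 5 genes most like the sum, MERVL-int and MT2_Mm. Members, lists and motifs were chosen with earlier results of these data known. The lists were written from general knowledge. The alternatives were DESeq2 1.42.0, its size factors, library size only, no filter, a mean of at least 50 counts, adjusted p-values, the replicate block and each library left out.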

Additional observations from a re-analysis of the deposited data

How the results depend on the processing

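The call of all 5 paralogs was the same under every alternative run, and no named gene refitted under the alternatives changed sign. Without the member with the most counts, *Zscan4d*, the log2 fold change of the sum was 3.19 in place of 3.31. Under a replicate block, which pairs libraries by number, the log2 fold changes of the members lay between 2.87 and 3.70, and no call changed. Same-numbered libraries shared little deviation over all genes (correlation 0.0617). The fibroblast markers without *Fn1* were, however, higher in replicate 1 than in replicate 2 of both genotypes. Whether the numbers pair the libraries cannot be told from this correlation. With 1 library left out a lone library is assumed to vary like the others. The relatives called higher then numbered between 0 (without WT replicate 1, where *Zkscan2* came to 0.98) and 3.

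With an adjusted p under 0.05 at any size in place of the cutoffs, 1 gene of the 2-cell list was lower, 2 activators were higher and 3 lower, 6 repressors were higher and 9 lower, 3 telomere and recombination genes were higher and 3 lower, 6 relatives were higher and 2 lower, and 7 neighbours were higher and 1 lower. These counts follow from dropping the fold change cutoff, and 21.7% of all genes were then higher and 21.8% lower. With a mean of at least 50 counts, 5 genes of the 2-cell list were called higher in place of 26, because only 6 of them were tested. In the main fit, 276 of the 12177 genes with that mean were called higher. Without genes of chromosome 6, an alternative chosen after seeing the data, 0 activators and 0 telomere and recombination genes were lower in place of 1 each. The table has no *Zscan4* pseudogene other than *Zscan4a*, so a sum with pseudogenes was not run. WT depth limits the fold changes, which rest on 5 to 27 counts per paralog and library.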
